A study of Mus musculus with 6 samples.

Results

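Genes of T cells and cytotoxic lymphocytes were followed in healed skin wounds of mice that differed in hair follicle regeneration. The 10 listed genes were Cd3e, Cd3g, Cd4, Cd8a, Gzma, Gzmb, Prf1, Il2rb, Nkg7 and Klrk1, each taken from the array row that names it alone and, where several rows do, the row of highest mean. By that rule 9 of the 10 were measured, of 20255 genes with a row of their own. The only row that lists Klrk1 also lists another gene, so no value is given for it. All 9 passed the filter that left out the dimmest 25% of genes and were among the 15191 tested, although Gzma passed barely, with a mean level at percentile 25.1 of all genes.

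Whole-skin scar biopsies were hybridised to Affymetrix exon arrays, which give 1 level for each transcript cluster. The 6 arrays formed 2 groups of 3, with 1 high-regeneration and 1 low-regeneration sample at each of days 4, 6 and 9 after the wound had closed. The low group is described in the design text as having no regenerated follicles and in the sample labels as low. The sources used here do not give strain, genotype, sex, age or any treatment, nor whether each sample is 1 animal. Each value is a log2 level, so a difference of 1 log2 unit is a 2-fold difference.

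T cells recognise peptides through the T cell receptor, whose signal is carried by the CD3 chains, with CD4 or CD8 as the co-receptor. Cytotoxic T cells and natural killer (NK) cells kill by releasing granules in which perforin opens the way into the target cell for granzymes. Interleukin 2 and interleukin 15 maintain these cells through a receptor that contains the chain encoded by Il2rb. Mouse skin holds resident gamma delta T cells as well as recruited alpha beta T cells, and dermal gamma delta T cells have been linked to wound-induced hair neogenesis. In a bulk biopsy, fewer cells of a type and less RNA per cell cannot be told apart.

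Among the skin markers, the keratins Krt5 and Krt14 and the collagen Col3a1 lay at percentiles 99.9, 99.3 and 99.4 of mean level. Of the CD3 chains that define T cells, Cd3g lay at percentile 82.5 and Cd3e at 63.4, while Cd3d lay at 18.0, below the filter, and the co-receptor gene Cd8a at 31.7. These percentiles compare different probes and describe the rows, not the number of T cells. Array medians lay between 6.04 and 6.10 log2 units. The low-regeneration sample of day 9 had Xist at 12.77 and the Y-linked gene Uty at 3.88, where the other 5 had Uty at 7.46 to 8.07. Its day 6 counterpart of the low group had Xist at 7.30, above the 5.75 to 5.82 of the remaining 4, with Uty at 7.85. In the day 9 pair, sex and group therefore cannot be told apart. The high-regeneration sample of day 4 differed from the other 5 at H2-Ea (6.59, against 4.09 to 4.43) and H2-Ob (6.16, against 7.68 to 8.07), both histocompatibility genes. Summary counts are therefore also given without the day 9 or the day 4 pair.

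Of the 9 measured genes, 7 had a promoter window in the RefSeq tables for assembly GRCm38.p6, and 4 of these are printed because the results below turn on them. Cd3g and Gzmb had the largest differences between the groups, Nkg7 had the lowest unadjusted p of the 9 in the test of slopes between groups, and Gzma is the other granzyme. Each window runs 5′ to 3′ from 250 bases before the annotated start site to 50 bases after it. Capitals mark matches, on either strand, to 6 short motifs named after the sequences. No matches overlap in these windows.
Cd3g promoter, chr9:44980382-44980681, minus strand: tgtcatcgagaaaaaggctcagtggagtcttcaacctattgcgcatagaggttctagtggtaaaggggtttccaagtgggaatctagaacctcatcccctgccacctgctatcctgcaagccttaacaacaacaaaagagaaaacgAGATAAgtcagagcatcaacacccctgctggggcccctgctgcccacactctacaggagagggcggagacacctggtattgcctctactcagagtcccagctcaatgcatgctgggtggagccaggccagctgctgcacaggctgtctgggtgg
Gzmb promoter, chr14:56262285-56262584, minus strand: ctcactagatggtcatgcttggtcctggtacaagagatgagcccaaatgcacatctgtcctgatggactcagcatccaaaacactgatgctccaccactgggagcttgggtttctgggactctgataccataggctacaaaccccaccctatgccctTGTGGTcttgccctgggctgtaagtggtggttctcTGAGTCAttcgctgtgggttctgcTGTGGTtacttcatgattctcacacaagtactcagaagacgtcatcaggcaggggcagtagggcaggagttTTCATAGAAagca
Nkg7 promoter, chr7:43436888-43437187, plus strand: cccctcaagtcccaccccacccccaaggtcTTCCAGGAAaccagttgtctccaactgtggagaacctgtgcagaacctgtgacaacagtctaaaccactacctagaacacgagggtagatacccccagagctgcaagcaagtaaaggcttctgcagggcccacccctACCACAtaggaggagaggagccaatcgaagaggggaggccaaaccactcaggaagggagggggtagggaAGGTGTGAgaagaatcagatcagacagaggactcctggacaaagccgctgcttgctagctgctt
Gzma promoter, chr13:113100932-113101231, minus strand: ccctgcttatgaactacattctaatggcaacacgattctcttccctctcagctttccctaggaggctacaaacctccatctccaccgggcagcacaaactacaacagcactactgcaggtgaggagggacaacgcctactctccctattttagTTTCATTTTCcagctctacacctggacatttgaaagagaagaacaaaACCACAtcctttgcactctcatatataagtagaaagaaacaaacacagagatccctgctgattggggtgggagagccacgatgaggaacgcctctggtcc

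The Runx motif TGTGGT, named for the transcription factors that act in T and NK cell development, occurred in 4 of the 7 windows (Gzma, Gzmb, Prf1 and Nkg7) and in 16.8% of 32851 mouse promoter windows of the same length. In the Gzmb window it occurred at 2 positions, starting 93 and 34 bases before the start site. The AP-1 motif TGANTCA was found only in the Gzmb window among the 7 (7.81% of all windows). The T-box motif AGGTGTGA was found only in the Nkg7 window (1.28% of all windows). The STAT motif TTCNNNGAA occurred in the Gzmb and Nkg7 windows (8.30%), the interferon-stimulated response element in that of Gzma (3.44%) and the GATA motif AGATAA in that of Cd3g (11.2%). The windows of Cd3e and Cd8a held none of the 6 motifs. A match describes the letters and does not show binding.

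The first comparison asked whether these genes differed between high-regeneration and low-regeneration scars of the same day. All 9 had a lower mean in the high-regeneration scars, with a median difference of -0.47 log2 units, against -0.0028 over all genes tested. The share of all genes with a negative mean difference was not counted, here or for the lists below. Gzmb, which encodes a granzyme that triggers death of the target cell, stood furthest apart, at 2.19-fold higher in the low-regeneration scars. It was followed by Cd3g (1.76-fold) and Il2rb (1.57-fold). No gene of the 9 passed over all genes at an adjusted p under 0.05 (limma, with day as a factor), so each difference below is a measured value that did not pass. The lowest adjusted p was 0.173, for Il2rb.

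Over all genes 8 passed (0.0527%), each of them higher in the high-regeneration scars, so 0% of genes passed in the direction of these 9. Without the day 6 pair 35 passed, of which 10 were lower, none of them among these genes. At an unadjusted p under 0.05 in limma, 4 of the 9 (Cd3e, Cd3g, Gzmb and Il2rb) were lower, against 5.17% of all genes tested (4.89% were higher). That count was 7 of 9 without the day 4 pair (4.75% of all genes), 7 of 8 without the day 6 pair (3.91%), where Gzma fell below the filter, and 3 of 9 without the day 9 pair (3.36%). Lower levels in all 3 pairs were found for 6 of the 9 (Cd3e, Cd3g, Cd4, Gzmb, Il2rb and Nkg7), against 18.3% of all genes. For 5 of the 9 (the same genes without Cd4), all 3 high-regeneration samples lay below all 3 low-regeneration samples, against 6.18% of all genes. Every gene of the 9 had its lowest level in a high-regeneration sample and its highest in a low-regeneration sample. That order was not counted over all genes. The lowest level was in the same sample, day 9 of the high group, for 8 genes and at day 4 for Gzmb. The highest was in the low group at day 9 for 4 genes (Cd3g, Cd8a, Gzmb and Nkg7), at day 6 for 4 (Cd4, Gzma, Prf1 and Il2rb) and at day 4 for Cd3e.

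**Figure D1:**
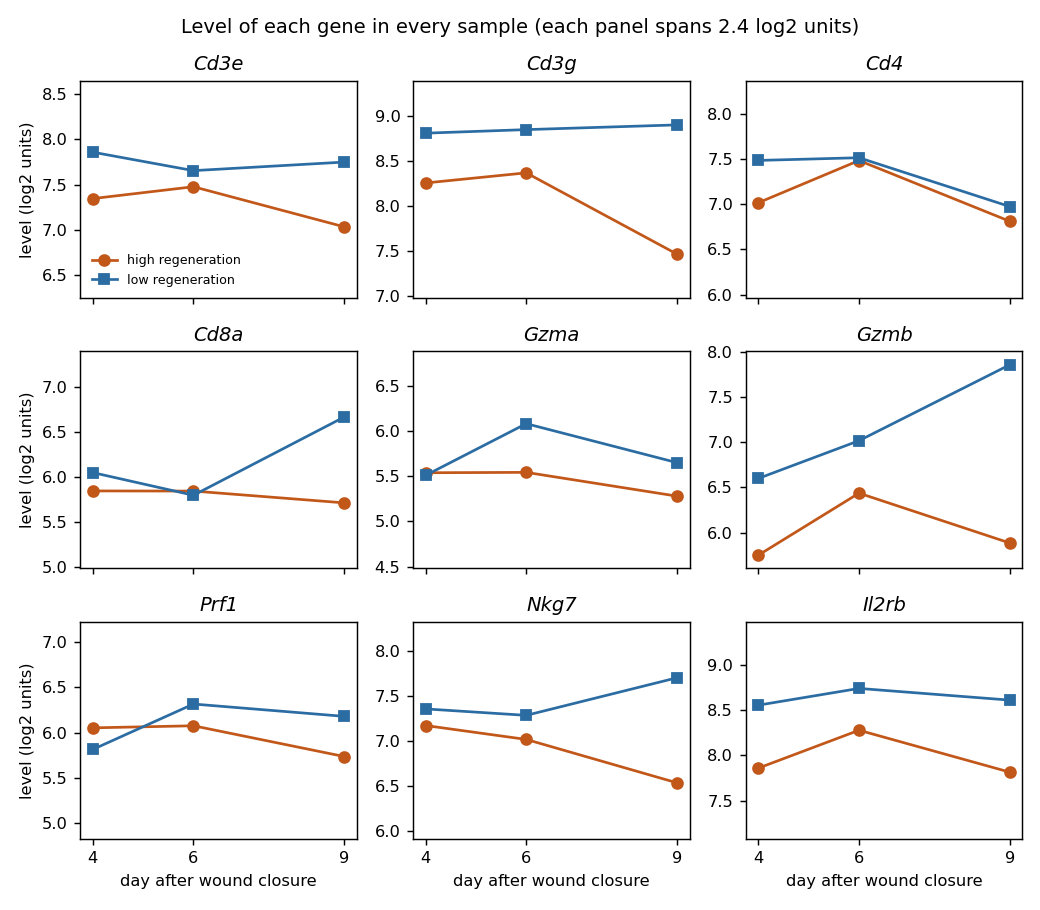
Level of each of the 9 genes (log2 units, vertical axis) against the day after wound closure, with 1 sample per point; circles are high-regeneration and squares low-regeneration scars. The groups do not overlap for Cd3e, Cd3g, Gzmb, Il2rb and Nkg7, and lines cross for Cd8a, Gzma and Prf1.

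Cd3g and Cd3e encode the gamma and epsilon chains of the CD3 complex. At days 4, 6 and 9, Cd3g stood at 8.26, 8.37 and 7.47 log2 units in high-regeneration scars, and at 8.81, 8.85 and 8.90 in the low-regeneration samples. The low group was nearly level over the days, and the groups did not overlap. The difference was -0.82 ± 0.53 (SD of 3 pairs, limma adjusted p = 0.372), and it was widest at day 9 (-1.43). A second row that names Cd3g alone and was not used in the fit gave -0.88, -0.39 and -1.57 at days 4, 6 and 9. Its levels of 2.84 to 4.41 all lay below the filter on dim genes, so its differences are given as a description of a dim row. Cd3e stood at 7.35, 7.48 and 7.03 in the high group and at 7.86, 7.66 and 7.75 in the low group, again without overlap. Its difference was -0.47 ± 0.27 (adjusted p = 0.371), and the day 6 pair was the closest (-0.18).

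The co-receptor genes Cd4 and Cd8a mark helper and cytotoxic T cells respectively, although some macrophages and dendritic cells also carry these molecules. Cd4 stood at 7.02, 7.48 and 6.81 in the high group and at 7.48, 7.51 and 6.97 in the low group at days 4, 6 and 9. The groups overlapped, and the day 6 samples were nearly equal. The difference was -0.22 ± 0.22 (SD of 3 pairs, limma adjusted p = 0.547). Cd8a stood at 5.85, 5.84 and 5.71 in the high group and at 6.05, 5.80 and 6.66 in the low group. Only the low-regeneration sample of day 9 was clearly above the rest. The mean difference of -0.37 was smaller than the SD of the pairs (0.52, adjusted p = 0.596). At day 9 the difference was -0.95 for Cd8a and -0.16 for Cd4, whereas at day 4 it was -0.20 for Cd8a and -0.47 for Cd4.

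At days 4, 6 and 9, Gzmb stood at 5.75, 6.44 and 5.89 log2 units in high-regeneration scars, and at 6.60, 7.02 and 7.86 in the low-regeneration samples. The groups did not overlap, and the low values were in ascending order of day while the high values peaked at day 6. The difference was -1.13 ± 0.74 (SD of 3 pairs, adjusted p = 0.367). By pair, the low-regeneration level was 1.80-fold higher at day 4, 1.495-fold at day 6 and 3.92-fold at day 9. Of all genes tested, 13 had a more negative mean difference. Gzmb exceeded Cd3e in its difference in every pair, by -0.34, -0.40 and -1.26 log2 units at days 4, 6 and 9.

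Gzma and Prf1 were nearer to equal, and both rows are dim, at percentiles 25.1 and 32.4 of mean level against 42.9 for Gzmb. Gzma, a granzyme that cleaves different substrates from granzyme B, stood at 5.54, 5.54 and 5.28 in the high group and at 5.51, 6.08 and 5.65 in the low group. The groups overlapped, because the low-regeneration sample of day 4 was as low as its partner. The difference was -0.29 ± 0.29 (SD of 3 pairs, adjusted p = 0.518). Prf1, which encodes perforin, stood at 6.05, 6.07 and 5.73 in the high group and at 5.81, 6.32 and 6.18 in the low group. Its sign at day 4 was opposite to that at days 6 and 9, and the difference of -0.15 ± 0.35 was within the spread of the pairs (adjusted p = 0.757). Over all 6 samples Gzma and Prf1 ranged over 0.80 and 0.58 log2 units, whereas Gzmb ranged over 2.11.

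Nkg7 encodes a membrane protein of cytotoxic granules that takes part in their release. At days 4, 6 and 9 it stood at 7.17, 7.02 and 6.54 in high-regeneration scars, and at 7.35, 7.28 and 7.70 in the low-regeneration samples. The groups did not overlap, but the day 4 and day 6 pairs were close, at -0.18 and -0.27, and the day 9 pair was not, at -1.16. The mean difference was -0.54 ± 0.54 (SD of 3 pairs, adjusted p = 0.498).

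Il2rb, the shared beta chain of the interleukin 2 and interleukin 15 receptors, had the most even difference of the 5 genes without overlap. It stood at 7.86, 8.28 and 7.81 in the high group and at 8.56, 8.74 and 8.61 in the low group. All 3 pairs differed by a similar amount (-0.70, -0.46 and -0.80), giving -0.65 ± 0.17 (SD of 3 pairs, adjusted p = 0.173). A second row that names Il2rb alone gave -0.60, -0.35 and -0.60.

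**Figure D2:**
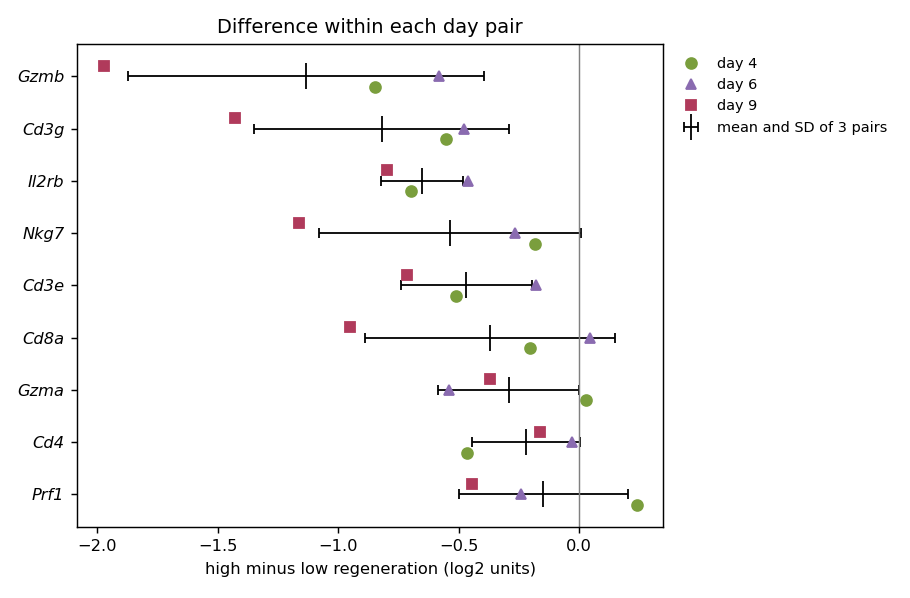
High minus low regeneration (log2 units, horizontal axis) for each gene, with 1 symbol per day pair and a bar for the mean and SD of 3 pairs. Gzmb has the most negative mean (-1.13), the day 9 symbol is the leftmost for 7 of the 9 genes, and the symbols right of 0 are day 4 of Gzma and Prf1 and day 6 of Cd8a.

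Without the day 9 pair, in which sex and group coincide, the median difference of the 9 genes was -0.26. Of the 9, 6 were lower in both remaining pairs (29.5% of all genes tested). The day 6 pair kept there also differed at Xist, with 7.30 in the low and 5.75 in the high sample. Without the day 4 pair the median was -0.45, and 8 of the 9 were lower in both remaining pairs (29.9% of all genes). Without the day 6 pair it was -0.64 over the 8 genes past the filter, Gzma not being among them. These counts without a pair were added after the values had been seen. No gene of the 9 passed with any pair left out.

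The second comparison asked how the genes ran over days 4 to 9 with the group as a covariate. No gene of the 9 passed, as 0% of all genes did, and at an unadjusted p under 0.05 in limma there were 0 of the 9 against 16.2% of all genes. The slopes were negative for 7 of the 9, with a median of -0.020 log2 units per day, but for 2 of the 9, with a median of 0.034, when the high-regeneration sample of day 9 was left out. The steepest were Gzmb at 0.13 ± 0.07 and Cd4 at -0.082 ± 0.044 per day (SE, limma adjusted p = 0.376 and 0.392). The groups did not run alike in these samples. In the high group 8 of the 9 were lower at day 9 than at day 4, all but Gzmb, and in the low group 7 of the 9 were higher, all but Cd3e and Cd4. Each of these is a difference between the same 2 samples of its group, and the shares over all genes were not computed. In the low group these samples also differed at Xist (5.79 at day 4, 12.77 at day 9). Sex and day cannot be told apart there.

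A test of the difference in slope between the groups passed for 0% of all genes, the 9 included (lowest adjusted p over all genes 0.988). At an unadjusted p under 0.05 there were 2 of the 9, Nkg7 and Cd3g, against 3.96% of all genes. Nkg7 ran -0.20 ± 0.05 log2 units per day lower in the high than in the low group, and Cd3g -0.19 ± 0.07 (SE). The corresponding value for Gzmb was -0.24 ± 0.10. The estimate was negative for 8 of the 9, the exception being Cd4, and the share over all genes was not computed. These estimates draw on the day 9 pair, in which sex and group cannot be told apart, and no fit without it was run. Xist itself differed in slope by -1.43 ± 0.19 (SE).

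The 9 genes did not all share a sample pattern. Pearson's r over the 6 samples, which include the same-day pairs, ranged from -0.19 (Cd4 with Cd8a) to 0.96 (Cd3e with Cd3g) over the 36 gene pairs, with a median of 0.61. Cd3g was the most like the mean of the other 8 (r = 0.95), followed by Il2rb (0.92), Cd3e (0.90) and Nkg7 (0.89). Cd4 was the least like it (0.42). Gzma correlated with Prf1 at 0.88 and with Cd8a at 0.090, while Gzmb correlated with Cd8a at 0.82. These values describe 6 arrays and carry no test.

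Mean levels of the 9 genes, each centred on its own mean, were -0.23, -0.038 and -0.51 log2 units in the high group at days 4, 6 and 9, and 0.13, 0.26 and 0.38 in the low group. Among 790 other genes tested that ranged over at least 1 log2 unit, the 10 whose pattern was most like this profile had r from 0.89 to 0.97 over the 6 samples. They were Akr1c18, Ms4a4b, Tap1, Cxcr6, Slfn2, Cxcl9, Gpr18, H2-Q10, Cxcl11 and Aoah. Akr1c18 had the highest r (0.97) and is in none of the gene lists read below, where only Cxcr6, Cxcl9 and Cxcl11 of the 10 appear. Ms4a4b encodes a T cell membrane protein, Tap1 a peptide transporter of antigen presentation, and Cxcr6 a chemokine receptor of T and NK cells. Cxcl9 and Cxcl11 are ligands of the receptor CXCR3 on activated T cells. Cxcl9 stood at 8.42, 9.17 and 8.39 in the high group and at 9.06, 10.01 and 10.34 in the low group at days 4, 6 and 9. Cxcl11 stood at 5.64, 5.87 and 5.52 against 6.12, 7.24 and 7.65. The groups did not overlap for Cxcl11, and for Cxcl9 they overlapped only in that the high sample of day 6 exceeded the low sample of day 4.

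**Figure D3:**
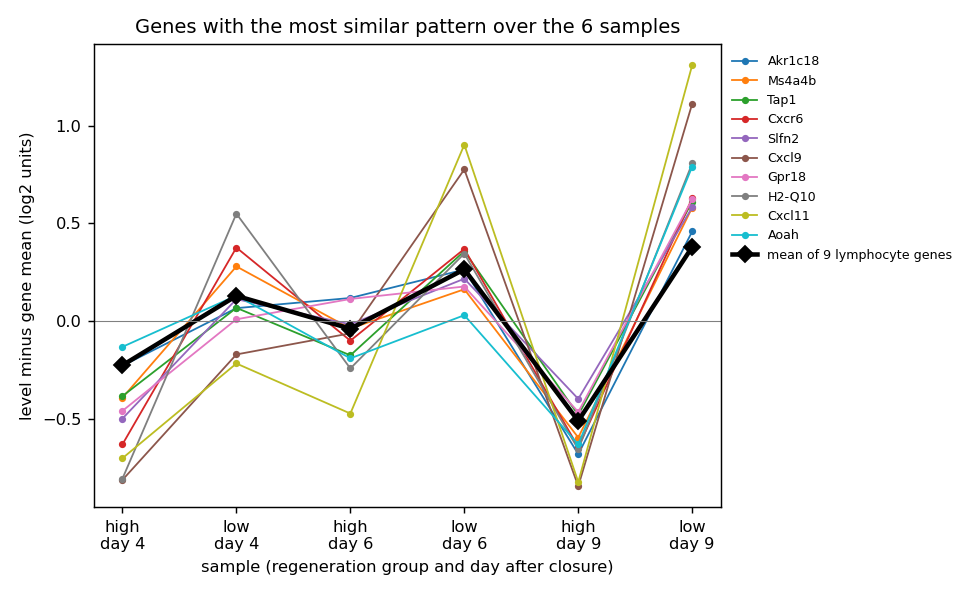
Level minus the gene's own mean (log2 units, vertical axis) in each of the 6 samples, for the mean of the 9 lymphocyte genes (black) and the 10 genes of most similar pattern. Within each day the low-regeneration sample is above the high-regeneration one for every line, and the gap is widest at day 9 for each gene shown.

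Other genes of T and NK cells, or of signals to them, were read from lists, of which 0 genes passed in either direction. Since the lists also hold ligands, such as the chemokine genes Cxcl9 and Ccl27a, they do not mark lymphocytes alone. Of the T cell receptor list, 13 of 20 genes were tested, 12 of them with a negative mean difference and a median of -0.25. At an unadjusted p under 0.05, 6 were lower and 0 higher, against 5.17% and 4.89% of all genes tested. Those shares also apply to the counts of the other lists. Cd3d of this list, left out by the filter, had the opposite sign (0.63 ± 0.54, SD of 3 pairs). Its unadjusted p was 0.031 in limma without the filter. Icos, a co-stimulatory receptor of activated T cells, stood at 6.32, 6.73 and 6.44 in the high group against 7.19, 7.26 and 7.12 in the low group (-0.69 ± 0.17, SD of 3 pairs, adjusted p = 0.163). Lat, an adaptor of receptor signalling, differed by -0.32 ± 0.17, Cd27, a co-stimulatory receptor, by -0.36 ± 0.21 and Ubash3a, a brake on receptor signalling, by -0.19 ± 0.09. These 4 were named for their low p, and over the list the groups did not overlap for 6 of the 13, all lower (6.18% of all genes). Cd247, the zeta chain of the receptor complex, did not follow Cd3e and Cd3g, with 8.33, 8.42 and 8.55 in the high group against 8.22, 8.46 and 8.44 in the low. Cd8b1, the partner chain of Cd8a, stood at 7.04 in the low-regeneration sample of day 9 and between 5.70 and 6.11 in the other 5.

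Of the list of granule and effector genes, 14 of 20 were tested, 13 with a negative mean difference, and the median was -0.14. At an unadjusted p under 0.05, 1 was lower and 1 higher, near the shares over all genes (5.17% and 4.89%). The lower one was Tnfsf10, which encodes the death ligand TRAIL (-0.58 ± 0.29), and the higher one Srgn, the granule proteoglycan serglycin that many leukocytes make (0.34 ± 0.03, SD of 3 pairs). Ccl5, a chemokine of activated T cells, had an uneven difference of -1.15, 0.22 and -1.13 at days 4, 6 and 9. Of the NK cell list, 10 of 20 were tested with a median of -0.20, and 3 were lower and 0 higher at an unadjusted p under 0.05. These were Klrd1, the CD94 receptor chain (-0.44 ± 0.16), the activating receptor gene Ncr1 (-0.40 ± 0.29), and Klrg1, a receptor of differentiated effector cells (-0.67 ± 0.56). Ncr1 was highest at day 6 in both groups, at 6.30 in the high and 7.03 in the low. Ligands of the NK receptor NKG2D, which Klrk1 encodes, showed no such difference. H60c, the skin-expressed member, differed by -0.022 ± 0.20, and the median of the 3 ligands tested of 9 was -0.022.

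Receptors and cytokines of the interleukin 2 and 15 axis had a median of -0.17 over 13 tested of 18, with 5 lower and 0 higher at an unadjusted p under 0.05. Il18r1, a chain of the interleukin 18 receptor, had the most even difference of these: 6.70, 6.70 and 6.47 in the high group against 7.31, 7.31 and 7.14 in the low (-0.63 ± 0.04, SD of 3 pairs, adjusted p = 0.135). Il2ra, the alpha chain of the interleukin 2 receptor, differed by -0.68 ± 0.49, Il12rb1 by -0.35 ± 0.23 and the cytokine gene Il15 by -0.20 ± 0.09. These 4 too were named for their low p, and over the list the groups did not overlap for 7 of the 13, all lower (6.18% of all genes). Genes of gamma delta and interleukin 17 T cells had a median of -0.22 over 6 tested of 12, with 1 lower at an unadjusted p under 0.05. Cd163l1, a scavenger receptor gene of dermal gamma delta T cells, differed by -0.19 ± 0.06. Il23r, the interleukin 23 receptor, differed by -0.47 ± 0.47, mostly at day 4 (-1.01, against -0.26 and -0.13 at days 6 and 9). The opposite sign was found for 1 of the 6, with a mean difference of 0.091. Regulatory T cell genes had a median of -0.075 over 5 tested of 10. Of those 5, 2 were lower (Tnfrsf4 and Ikzf2) and 1 higher at an unadjusted p under 0.05. The higher one was Il10, an anti-inflammatory cytokine gene, at 7.23, 7.22 and 6.56 in the high group against 6.26, 6.36 and 6.07 in the low (0.77 ± 0.25, adjusted p = 0.194).

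Lymphocyte recruitment genes had a median of -0.39 over 16 tested of 18, with 10 lower and 1 higher at an unadjusted p under 0.05 (5.17% and 4.89% of all genes). Cxcr6 stood at 6.11, 6.64 and 6.10 in the high group against 7.12, 7.11 and 7.37 in the low (-0.92 ± 0.41, SD of 3 pairs, adjusted p = 0.254). Ccr8, a receptor of skin T cells, differed by -0.42 ± 0.12. Ccr10, the receptor for the skin chemokine that Ccl27a encodes, had the opposite sign, at 0.54 ± 0.14. Ccl27a itself had a slope of -0.21 ± 0.03 log2 units per day (SE, adjusted p = 0.107). The checkpoint list had a median of -0.26 over 7 tested of 8, with 3 lower at an unadjusted p under 0.05, namely Havcr2, Pdcd1 and Cd274.

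**Figure D4:**
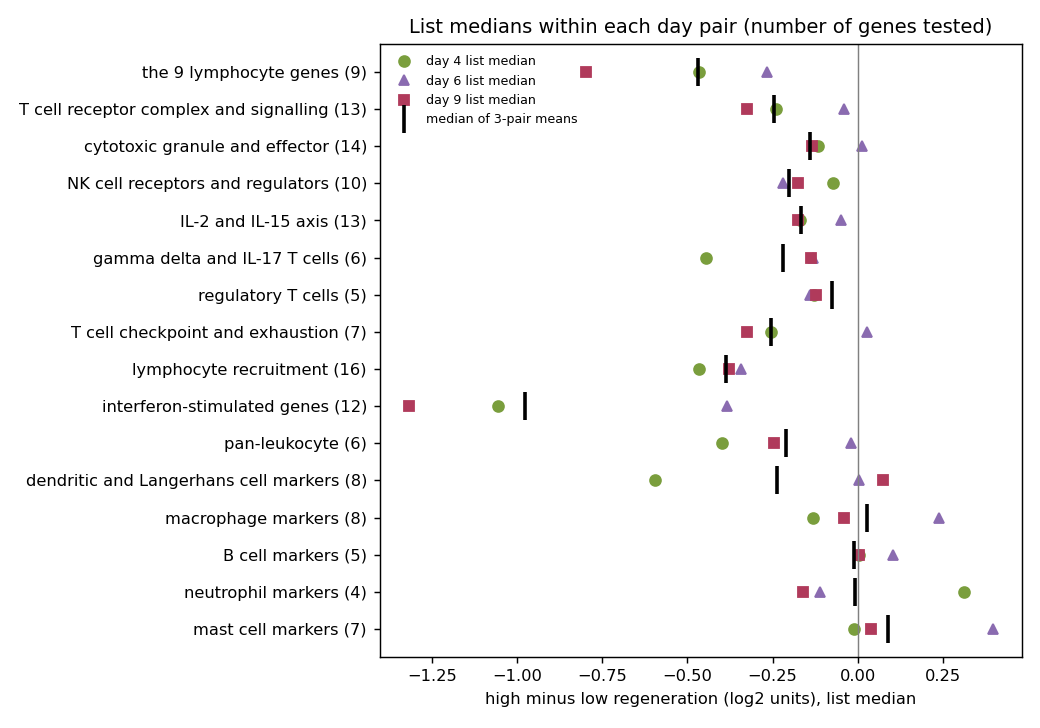
Median of high minus low regeneration (log2 units, horizontal axis) over the tested genes of each list, with 1 symbol per day pair and a black bar for the median of the 3-pair means. The 9 lymphocyte genes (-0.47), recruitment (-0.39) and interferon-stimulated genes (-0.98) lie left of 0 at all 3 days, as do the T cell receptor, NK, interleukin 2 and 15, gamma delta, regulatory T and pan-leukocyte lists. The B cell median is -0.012, with day values from 0.0027 to 0.10. Macrophage, neutrophil and mast cell medians (0.025, -0.0096 and 0.087) have day values on both sides of 0, such as 0.31 to -0.16 for neutrophils and 0.40 for mast cells at day 6.

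Markers of leukocytes as a whole, of other cell types and of the interferon response were measured beside these genes. The pan-leukocyte list had a median of -0.21 over 6 genes, all with a negative mean difference, and Ptprc, which encodes the leukocyte antigen CD45, differed by -0.42 ± 0.29. The centred mean level of the list ran from -0.31 to 0.090 in the high group and from 0.067 to 0.15 in the low. Macrophage markers had a median of 0.025 over 8 genes, 2 of them with a negative mean difference. Those were Adgre1 at -0.35 ± 0.36 (-0.43, 0.037 and -0.67 at days 4, 6 and 9) and Csf1r at -0.094 ± 0.11. The highest was Cd14 at 0.53 ± 0.29. B cell markers had a median of -0.012 over 5 genes and centred means of -0.027 to 0.044 in the high and -0.11 to 0.086 in the low group. Dendritic and Langerhans cell markers had a median of -0.24 over 8 genes, with -0.60 at day 4 and 0.074 at day 9. Interferon-stimulated genes had a median of -0.98 over 12 genes, of which all 12 had a negative mean difference, with centred means of -0.90 to -0.24 in the high and 0.13 to 1.08 in the low group. Hair shaft and inner root sheath markers had the opposite sign, with a median of 1.62 over 9 genes, centred means of -0.23 to 2.60 in the high and -1.96 to -0.022 in the low group. Skeletal muscle markers had a median of 0.40 over 8 genes, with 0.91 at day 4. The part of these cells and of the interferon response in the lymphocyte differences was not tested.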

How the data were processed

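Levels came from 6 scar biopsies, 3 of high and 3 of low regeneration. The deposited values are log2 levels per transcript cluster, a scale read from their range (2.03 to 14.58). The submitters' processing notes name PLIER, which combines the probes of a set, and Affymetrix Expression Console. The sources used here do not give genome build, background correction or filters, and how far they shaped dim values is unknown. Precision is limited by the number of arrays.

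Of 53145 rows, 25466 had 1 gene symbol in the platform annotation, 2299 had more than 1 and 25380 were unnamed there. The row of highest mean was kept per gene (20255 genes), and the lowest 25% by mean (under 5.60) were left out. No further normalization was applied. Limma 3.58.1 in R 4.3.3 (lmFit, eBayes, two-sided, Benjamini-Hochberg over 15191 genes, threshold 0.05) compared high with low with day as a factor. The pairing rests on the design text, and deviations of same-day samples correlated at 0.50, 0.11 and 0.56. Slope per day was fitted with the group as covariate, and the difference in slope as their interaction, leaving 2, 3 and 2 residual degrees of freedom. The slope fit takes same-day samples as independent, and date and day coincide. The p-values reflect only the spread between these samples, which may be technical. Fits of the difference and of the slope were tested on simulated data with independent noise and no pair effect, unlike these arrays.

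Members and lists were chosen with earlier results of these data known. Named genes were the members, up to 4 genes per list of lowest unadjusted p for the difference (up to 2 for the slope), with a choice among these in the text, and the 10 genes of highest Pearson's r with the members' mean. Alternatives were quantile normalization, no filter, the mean of a gene's rows, a variance trend, no day term, and samples left out.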

Additional observations from a re-analysis of the deposited data

How the results depend on the processing

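The 9 differences between high and low regeneration kept their negative sign under quantile normalization, no filter on dim genes, the mean of a gene's rows, a variance trend, no day term and each pair left out, except that Gzma fell below the filter without the day 6 pair. Their median ran from -0.64 to -0.26 over those settings, and 0 of them passed under any, the lowest adjusted p being 0.133 (without the day 6 pair). Over all genes, the 8 calls became 0 with quantile normalization and 0 without the filter, 6 with no replicate block (no day term for the pair), 11 with the mean of rows, 9 with a trend, and 0 to 35 with a pair left out (10 of the 35 lower). For slopes per day, 0 genes passed except 130 with the day 6 high-regeneration sample left out, and none of the 9 was among them. With the day 9 high-regeneration sample left out, the median slope of the 9 was 0.034 (range over single samples left out -0.059 to 0.034). Slopes of 6 genes changed sign with single samples left out, ranging for Prf1 from -0.062 to 0.057 (0.0058 after quantile normalization), for Nkg7 from -0.117 to 0.054, for Cd3g from -0.143 to 0.023, for Gzma from -0.078 to 0.013, for Il2rb from -0.035 to 0.034 and for Cd8a from -0.041 to 0.118. The causes were not tested.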

Other observations

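The delta chain gene Cd3d, chosen after its values were seen, ran against Cd3e and Cd3g. At days 4, 6 and 9 it stood at 5.24, 5.55 and 5.63 log2 units in high-regeneration scars and at 4.83, 5.31 and 4.38 in the low. Cd3d thus differed by 0.63 ± 0.54 (SD of 3 pairs). In limma without the filter it had an unadjusted p of 0.031 and an adjusted p of 0.525. Its mean of 5.16 lay below the filter on dim genes, at percentile 18.0 of mean level.

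Further genes chosen after their values were seen differed mainly in the day 9 pair. Cxcl10, a CXCR3 ligand, had differences of 0.20, 0.088 and -2.56 at days 4, 6 and 9, Gzmk, a granzyme, -0.13, -0.056 and -1.21, Ifng, the gene of interferon gamma, 0.33, -0.026 and -0.86, Tbx21, a transcription factor of interferon gamma-producing cells, 0.0052, -0.022 and -0.70, and Cd28, a co-stimulatory receptor, -0.019, -0.058 and -0.66. The low-regeneration sample of that pair was the one with the highest Xist level.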
